A study of Mus musculus with 30 samples.

Results

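Ribosomal protein pseudogenes were taken as the genes whose symbol begins with Rpl or Rps and contains -ps, together with Rpl37rt, Gm10073 and Gm3362. These were 303 of the 54532 genes in the deposited tables, and 226 of them drew at least 1 count somewhere. The set was picked because such genes led the comparison of PBMCs from the group labelled early tumor with those from ctrl mice. Their values in that comparison are therefore given as a description. Counts of members past a threshold there restate how they were picked. Platelet libraries, and the comparison of platelets with PBMCs, were not used to pick them.

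Platelet RNA and PBMC RNA came from the blood of female C57BL/6 mice, 6 to 8 weeks old when the experiment began, bled from the retro-orbital sinus on day 14 after a subcutaneous injection. C group (ctrl) received 100 µl HBSS alone, S group (early tumor) received 2000 B16F10 cells, a mouse melanoma line, in HBSS and carried no visible tumor, and O group (large tumor) received 100000 B16F10 cells and carried macroscopic melanomas. Each group and tissue had 5 libraries, 30 in all, and each library was made from RNA pooled over mice: 5 mice in each PBMC pool of C group, 4 or 5 in S group and 3 to 5 in O group, and 5 or 10, 10, and 3 to 5 mice, respectively, in the platelet pools. These are the numbers in the sample labels, and the study's methods give some platelet pools of S group a slightly different size. With no tumor visible, which of the pooled S group mice carried one is not known. The study reports that most mice given this number of cells stayed free of visible tumors. PBMCs were taken from the cell layer left after platelet-rich plasma was drawn from the same blood, and libraries were made from RNA caught on poly-T beads.

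Ribosomal proteins are made from short, abundant messenger RNAs in every cell. Copies of these messenger RNAs have been reverse transcribed and inserted across the genome many times in mammalian evolution. Such a processed pseudogene lacks introns and is generally not translated into a working protein, and it resembles the spliced messenger RNA of its parent gene so closely that a short read may match both. A read counted on a pseudogene can thus come from the pseudogene's own transcript or from the parent's, and how reads that match several places were counted is not given in the sources used here. All counts below are uncertain in this respect.

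Of the 303 members, 190 had an Rpl symbol and 111 an Rps symbol, the latter including copies of Rpsa. The annotation (GRCm38, GENCODE mouse release 21) named 288 processed pseudogenes, 8 transcribed processed pseudogenes and 7 protein-coding genes. Aligned to spliced transcripts, 298 members matched one of 61 parents, most often Rpl31 and Rps12 with 24 members each. The median identity to the parent was 96.3% (lowest 70.9%), and 14 members had no difference in the aligned part. For 31 members every stretch of 100 bases was also found in an annotated transcript of another gene, whereas 119 shared no such stretch and were unique throughout in this sense. The 85 members that passed the filter on low counts in at least 1 comparison between groups were closer to their parents than the rest, with a median identity of 99.3% against 93.7% and a median of 39.0% against 100.0% of 100-base windows unique among annotated transcripts. Another gene was overlapped by 93 members, but an exon of one by 11.

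Rpl37rt (ENSMUSG00000072692) lies at chr5:115102923-115110268 on the minus strand, and 50.4% of its exonic sequence aligned to Rpl37, a protein of the large ribosomal subunit. Gm10073 (ENSMUSG00000060019, chr8:106572966-106573461, minus strand) is annotated as protein-coding and is a full copy of Rplp1, an acidic protein of the ribosomal stalk, with 6 differences. Gm3362 (ENSMUSG00000085442, chr15:37943327-37943792, minus strand) copies Rpl23a, of the large subunit, and lies inside the gene Rrm2b, on the same strand, without touching an exon, so that its reads and those of unspliced Rrm2b RNA cannot be told apart by strand. Rpl17-ps3 (ENSMUSG00000113948, chr12:67510756-67511311, plus strand) copies Rpl17, also of the large subunit, with 2 differences. Stretches of 90 bases of these members and of the parents are shown 5′ to 3′ in the direction of the messenger RNA, since within the aligned part a read tells a copy from its parent only where it covers one of the few bases that differ. Capitals mark those bases. The stretches were read from the GRCm38 transcripts of the annotation, at coding positions 204 to 293 of Rpl37, 205 to 294 of Rplp1, 124 to 213 of Rpl23a and 58 to 147 of Rpl17, counted from 1 at the A of the start codon.
Rpl37rt: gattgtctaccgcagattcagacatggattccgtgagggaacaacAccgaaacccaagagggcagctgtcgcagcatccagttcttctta
Rpl37: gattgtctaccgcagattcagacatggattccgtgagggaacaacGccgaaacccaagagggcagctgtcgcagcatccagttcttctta
Gm10073: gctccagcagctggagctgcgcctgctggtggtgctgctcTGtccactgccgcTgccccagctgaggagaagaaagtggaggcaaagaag
Rplp1: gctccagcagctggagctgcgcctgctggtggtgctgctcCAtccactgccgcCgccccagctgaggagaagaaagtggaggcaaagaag
Gm3362: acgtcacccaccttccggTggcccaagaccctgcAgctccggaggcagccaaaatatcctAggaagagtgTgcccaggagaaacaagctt
Rpl23a: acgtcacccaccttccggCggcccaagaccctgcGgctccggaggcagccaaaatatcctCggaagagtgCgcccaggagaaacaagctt
Rpl17-ps3: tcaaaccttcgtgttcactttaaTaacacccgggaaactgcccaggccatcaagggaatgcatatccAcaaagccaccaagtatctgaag
Rpl17: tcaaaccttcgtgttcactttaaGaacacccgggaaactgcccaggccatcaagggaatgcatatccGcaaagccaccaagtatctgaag

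With the parent's base given first, the differences in the coding part were G249A in Rpl37rt, C9T, A53G, C245T, A246G and C258T in Gm10073, C142T, G158A, C184A and C194T in Gm3362, and G81T and G125A in Rpl17-ps3. The share of 100-base windows unique among annotated transcripts was 72.7% in Rpl37rt, 69.8% in Gm10073, 41.4% in Gm3362 and 27.4% in Rpl17-ps3.

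The total count on genes was 13390983 to 15973449 in PBMC libraries and 12259036 to 25360080 in platelet libraries. Platelet marker genes summed to 9138 to 49050 counts scaled to library size (CPM) in platelet libraries and to 721 to 9919 in PBMC libraries, and B cell markers to 272 to 1095 and 1512 to 2830, each on its tissue's own scale. No blood cell or melanoma marker found in the files was at 0 throughout a tissue. PBMC library 3 of S group had counts on 32900 genes, against 20540 to 22991 in the other PBMC libraries, and on 608 olfactory receptor genes, against 38 to 78. It also had counts on 169 members, against 119 to 149 in the other PBMC libraries, so the main counts past a threshold and the leading fold changes of S group in PBMCs are given without it as well. Levels below are CPM after TMM normalization within the 15 libraries of a tissue, and PBMC and platelet levels are not comparable on that scale. In these bulk libraries, fewer cells of a type and less RNA per cell cannot be told apart.

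In the PBMC comparison that picked the members, S group had lower levels of Rpl37rt, Gm10073 and Rpl38-ps2 and higher levels of Gm3362, Rpl17-ps3, Rps2-ps10 and Rpl21-ps10 than C group. Of the 77 members with enough counts, 26 (10 higher and 16 lower in S group) lay under the study's threshold, an unadjusted P of 0.05, here by edgeR's quasi-likelihood fit, beside 2.64% of all genes (1.23% higher and 1.41% lower). Without library 3 of S group the number was again 26, of which 24 were shared. Since this comparison picked the members, nothing is read from these shares, and the threshold serves below only to sort the members into classes. The median log2 fold change was -0.10 over the members, -0.02 over 82 cytosolic ribosomal protein genes and 0.01 over all genes. Just inside that threshold lay Rpsa-ps12 (log2 fold change -1.02) and Rps27a-ps2 (0.69), and just outside it Rps12-ps9 (0.42) and Rpl9-ps6 (0.28).

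Rpl37rt stood at 36.5, 44.1, 38.03, 38.5 and 37.9 CPM in PBMC libraries 1 to 5 of C group, at 25.5, 24.0, 22.2, 25.6 and 26.9 in S group, and at 32.7, 36.7, 35.6, 36.3 and 25.8 in O group. S group and C group did not overlap, and library 5 of O group was the only O group library within the range of S group. Gm10073 stood at 15.2, 18.04, 14.0, 14.7 and 14.9 CPM in C group, at 7.42, 7.88, 6.29, 9.58 and 8.19 in S group, and at 15.7, 17.1, 14.8, 14.3 and 8.97 in O group. Here too, O group fell among the ctrl values except in library 5, which lay within the range of S group.

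Gm3362 went the other way. It stood at 3.85, 3.68, 3.90, 4.11 and 4.378 CPM in C group, at 12.8, 13.6, 11.3, 6.65 and 8.08 in S group, and at 4.41, 3.15, 3.20, 4.36 and 7.96 in O group. Every S group library was above every ctrl library, with libraries 4 and 5 of S group nearest to them, and library 5 of O group again lay within the range of S group. Rpl17-ps3 stood at 167, 170, 140, 170 and 151 CPM in C group, at 257, 233, 221, 215 and 214 in S group, and at 151, 151, 130, 151 and 189 in O group, so that S group lay above both other groups. The log2 fold change of S group over C group was -0.64 (SE 0.0707) for Rpl37rt, -0.95 (SE 0.116) for Gm10073, 1.41 (SE 0.194) for Gm3362 and 0.53 (SE 0.0745) for Rpl17-ps3. Without library 3 of S group the values were -0.61, -0.88, 1.38 and 0.53 in the same order.

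**Figure D1:**
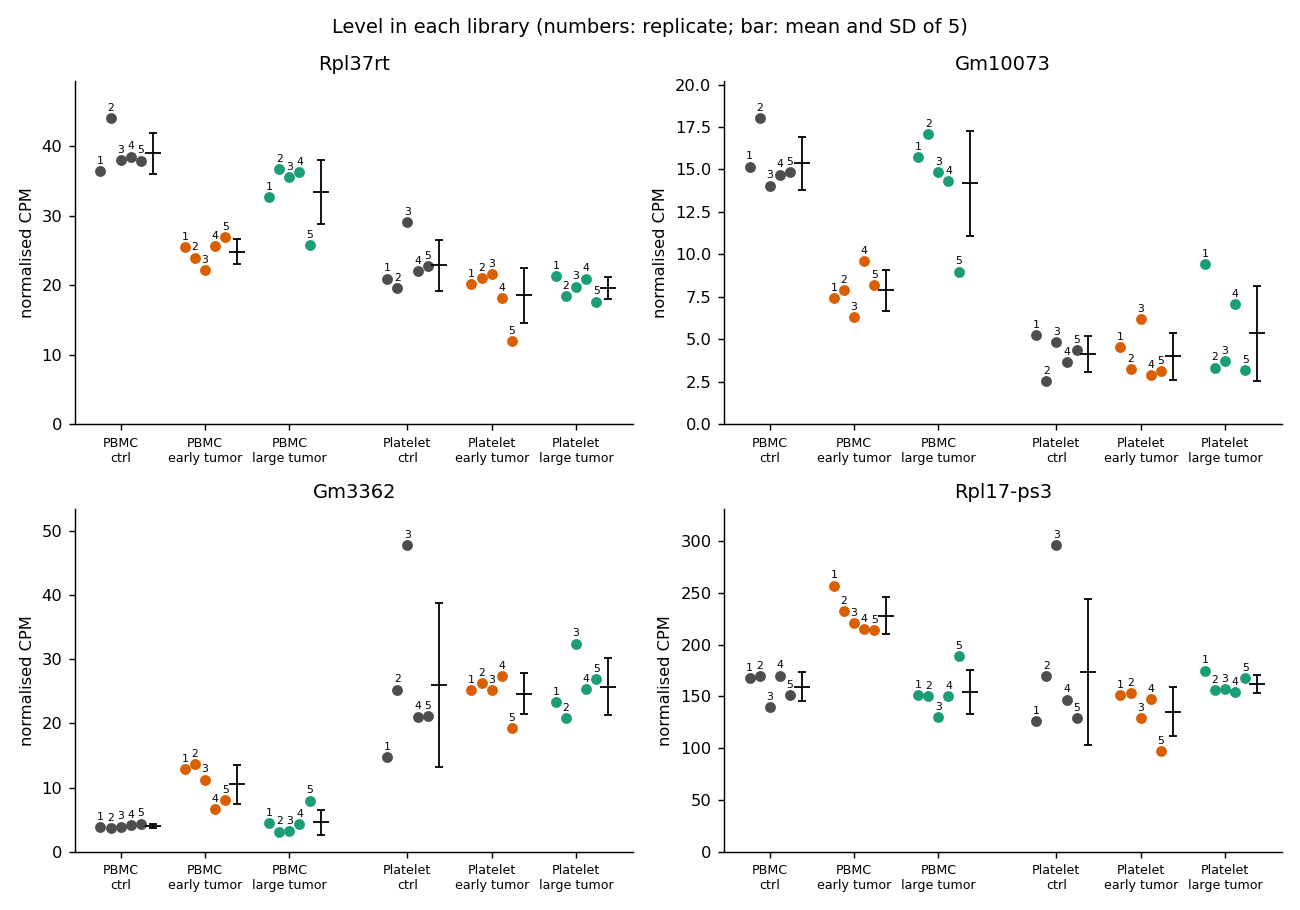
Levels of the leading members in each library (TMM-normalized CPM, vertical axes, scaled within each tissue, so that PBMC and platelet panels are not comparable) by group, with ctrl, early tumor and large tumor standing for C, S and O group; each point is 1 library with its number, and the bar beside each group its mean and SD (n = 5). In PBMCs, S group does not overlap C group for Rpl37rt, Gm10073, Gm3362 or Rpl17-ps3, and the corresponding platelet values overlap.

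The members that were higher included copies of genes for both ribosomal subunits. Rps2-ps10, a copy of the small-subunit gene Rps2, stood at 2.04, 1.81, 2.08, 1.69 and 1.54 CPM in C group, at 7.42, 5.23, 5.76, 2.41 and 3.76 in S group, and at 3.15, 2.73, 1.56, 2.71 and 3.37 in O group. Rpl21-ps10, a copy of the large-subunit gene Rpl21, was low throughout, with 0.269 to 0.623 CPM in C group, 1.01 to 2.36 in S group and 0.156 to 0.955 in O group. Its S group libraries lay above all libraries of the other groups.
Smaller differences were seen in abundant copies: Rpsa-ps10, a copy of the laminin receptor and small-subunit gene Rpsa, had 70.8 to 77.7 CPM in C group, 80.2 to 103.0 in S group and 69.6 to 79.2 in O group.

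Among the members that were lower, Rpl38-ps2, which has no base that differs from Rpl38 (a large-subunit protein) in its 213 bases, stood at 49.4, 56.2, 50.1, 48.4 and 42.4 CPM in C group, at 31.3, 28.4, 25.8, 35.1 and 41.3 in S group, and at 61.6, 47.6, 38.01, 65.2 and 37.5 in O group. Library 5 of S group lay just under the lowest ctrl library. Rps15a-ps7, a copy of the small-subunit gene Rps15a, had 6.80 to 7.91 CPM in C group, 3.77 to 5.78 in S group, and 6.95 to 8.62 in libraries 1 to 4 of O group with 4.65 in library 5. Rps10-ps1 had 22.6 to 32.2 CPM in C group, 15.5 to 21.5 in S group and 17.0 to 30.7 in O group.

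The members that were higher, lower or past neither limit differed in how far they can be told apart from other genes. The 10 that were higher had a median identity to the parent of 99.4%, a longest exact match of 338.5 bases at the median and a median of 22.5% unique windows. The 16 that were lower had a median identity of 98.75%, a median longest exact match of 178.5 bases and a median of 71.25% unique windows. The 51 others had medians of 99.3%, 257.5 bases and 31.4%. With the classes formed without library 3 of S group, the medians of unique windows were 23.5%, 72.6% and 33.5%. Another gene was overlapped by 6 of the 10, 5 of the 16 and 22 of the 51. These features were not used to pick the members, but the classes were formed from the comparison that did, and the differences are given without a test.

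S group was next compared with O group in PBMCs, which shares the S group libraries with the comparison that picked the members. Of 69 members tested, 19 (10 higher and 9 lower in S group) had an unadjusted P under 0.05, beside 12.2% of all genes (4.43% higher and 7.8% lower). None passed adjustment by edgeR, and 6 did by DESeq2, beside 1.57% of all genes. Without library 3 of S group the count was again 19, with 17 shared. Among 82 cytosolic ribosomal protein genes 7 were past the unadjusted threshold, and among 89 other pseudogenes with -ps in the symbol 21 were. The largest log2 fold change among the named members was 1.32 (SE 0.400) for Rpl21-ps10, followed by 1.16 (SE 0.291) for Gm3362, and the most negative was -0.99 (SE 0.416) for Rpsa-ps12. Without library 3 of S group these were 1.26, 1.116 and -0.86. Rpl21-ps10 had too few counts to be tested in O group against C group. It passed the filter here through S group, where it is high, so its rank is not independent of that filter. Rpsa-ps12 was low too, at 0.224 to 0.969 CPM in S group and 0.7 to 1.26 in O group.

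Rpl9-ps6 and Rpl9-ps4, copies of the large-subunit gene Rpl9, separated S group from O group. Rpl9-ps4 stood at 17.3, 17.98, 19.6, 18.4 and 17.0 CPM in C group, at 25.7, 26.03, 21.2, 20.8 and 23.2 in S group, and at 11.96, 13.8, 13.8, 13.4 and 19.2 in O group. The groups were in the order S, C, O apart from library 5 of O group, which lay among the ctrl values. Rpl9-ps6 had 25.5 to 33.4 CPM in S group and 17.5 to 22.5 in O group. C group, at 19.9 to 34.3, spanned the range of S group and held library 5 of O group, whereas libraries 1 to 4 of O group lay below it.

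In O group against C group, which shares the ctrl libraries with the comparison that picked the members, 11 of 72 members tested (3 higher and 8 lower in O group) had an unadjusted P under 0.05, beside 11.9% of all genes (7.56% higher and 4.39% lower). None passed adjustment by edgeR or DESeq2. The count was 4 without library 4 of O group, 7 without library 5 of O group or without ctrl library 2 or 5, and 6 without ctrl library 4. Rps15a-ps6 (log2 fold change -0.48, SE 0.161) and Rps13-ps2 (-0.43, SE 0.166), copies of small-subunit genes, were lower in O group, and Rps2-ps10 was higher (0.58, SE 0.212). Erythroid markers summed to 163800 to 481800 CPM in libraries 1 to 4 of O group, to 61400 in library 5 and to 29580 to 92560 in C group. The part of these values in the PBMC comparisons with O group was not tested.

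Members that differed in the same direction from C group and from O group in PBMCs, each at an unadjusted P under 0.05, numbered 8 higher and 9 lower in S group, of 69 tested in both. Of all genes tested in both, 0.349% were higher and 0.513% lower by this rule. Since the S group libraries picked the members, nothing is read from the difference. Higher were Gm3362, Rpl17-ps3, Rpl21-ps10, Rpl21-ps15, Rpl9-ps4, Rps12-ps3, Rps2-ps10 and Rpsa-ps10. Of these, Rpl21-ps10 passed the filter on low counts only through S group, where it is high. Lower were Gm10073, Rpl37rt, Rpl17-ps10, Rpl21-ps8, Rpl38-ps2, Rps10-ps1, Rps15a-ps7, Rps19-ps7 and Rpsa-ps12. Without library 3 of S group, the 8 higher members were the same, whereas Rpl21-ps8 and Rpsa-ps12 left the lower ones and Rpl36a-ps2 joined them. Copies of the same parent were found on both sides with all libraries: Rpl17-ps3 and Rpl17-ps10, Rpl21-ps10 and Rpl21-ps8, and Rpsa-ps10 and Rpsa-ps12.

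**Figure D2:**
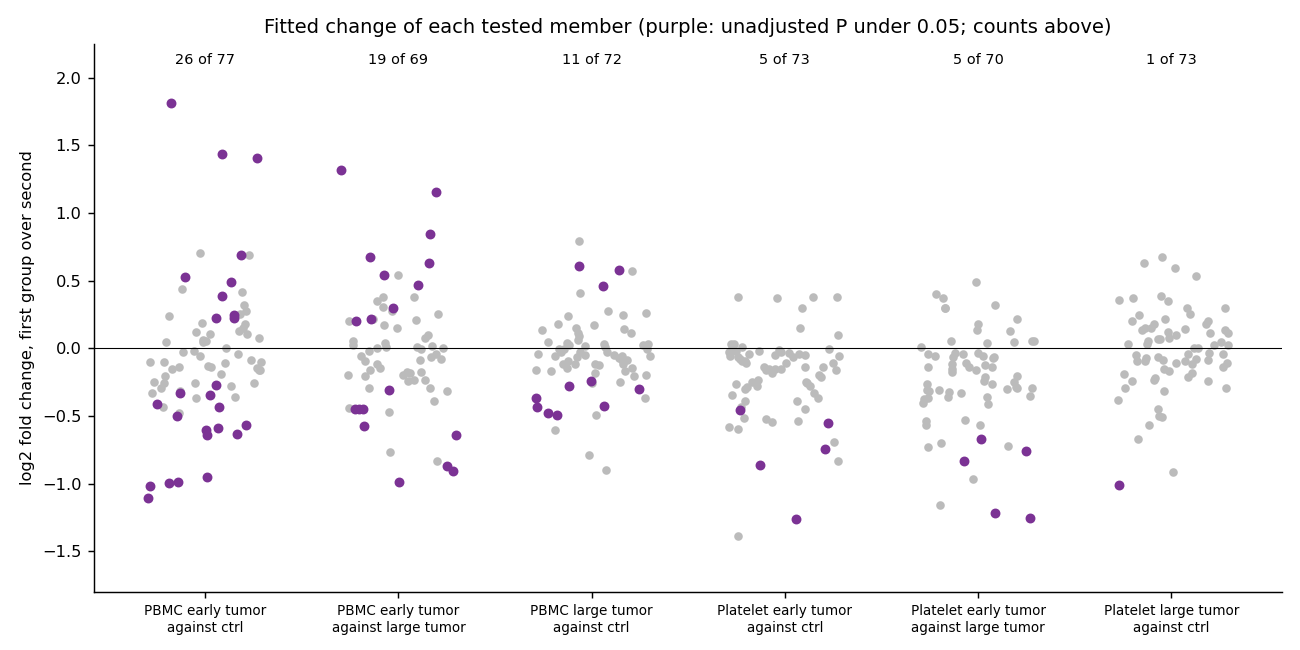
Log2 fold change of every member tested (vertical axis, first group over second; each point is 1 member) in the 3 comparisons of PBMCs and the 3 of platelets, with ctrl, early tumor and large tumor for C, S and O group; purple marks an unadjusted P under 0.05, which in the PBMC panels with C group or S group describes libraries that picked the members. The counts above run from 26 of 77 in PBMCs of S group against C group to 1 of 73 in platelets of O group against C group, and each purple point in platelets lies below 0.

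The O group libraries differed among themselves. The following describes them on a scale set by the comparison that picked the members, and no test goes with it. For each of the 26 members past the unadjusted threshold, the level in every O group library was placed on a scale on which the mean of C group is 0 and that of S group is 1, so that a library like the ctrl mean lies at 0. Library 5 of O group lay nearer to S group for 18 of 26 members (69.2%, median position 0.77), whereas libraries 1 to 4 did for 8, 3, 6 and 5 members, with medians of 0.119, 0.039, 0.044 and -0.055. With the mean of S group taken without its library 3, library 5 of O group was again nearer to S group for 18 members (median position 0.759), and libraries 1 to 4 for 8, 4, 6 and 5. Of the 374 other genes past the same threshold, 57.2% lay nearer to S group in library 5 and 35.6% to 48.4% in libraries 1 to 4. Among the 279 of these that are not pseudogenes, 53.8% lay nearer to S group in library 5, 53.8% in library 1 and 41.6% to 49.5% in libraries 2 to 4. Their median position was 0.579 in library 5 and 0.673 in library 1. In library 5 the position was 0.91 for Rpl37rt, 0.79 for Gm10073, 0.74 for Gm3362 and 0.48 for Rpl17-ps3.

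This library was a pool of 5 mice. Its platelet marker sum was 1313 CPM, against 1884 to 9919 in the other O group libraries, 1781 to 2547 in S group and 721 to 4324 in C group, and its erythroid marker sum was 61400 CPM, against 163800 to 481800 in the other O group libraries and 29580 to 92560 in C group and S group. The part of these values in its position was not tested. Without it, S group against O group had 20 members with an unadjusted P under 0.05, 18 of them shared with the 19 above, and the smallest adjusted P by edgeR was 0.0559. Of the 82 cytosolic ribosomal protein genes, 3 were higher and 9 lower in S group than in C group at an unadjusted P under 0.05 in PBMCs. The one with the smallest P was Rps29 (307 ± 37.2 CPM in S group and 512 ± 60.3 in C group, SD, n = 5), which stood at 324.7 CPM in library 5 of O group and at 431 to 583 in the others.

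**Figure D3:**
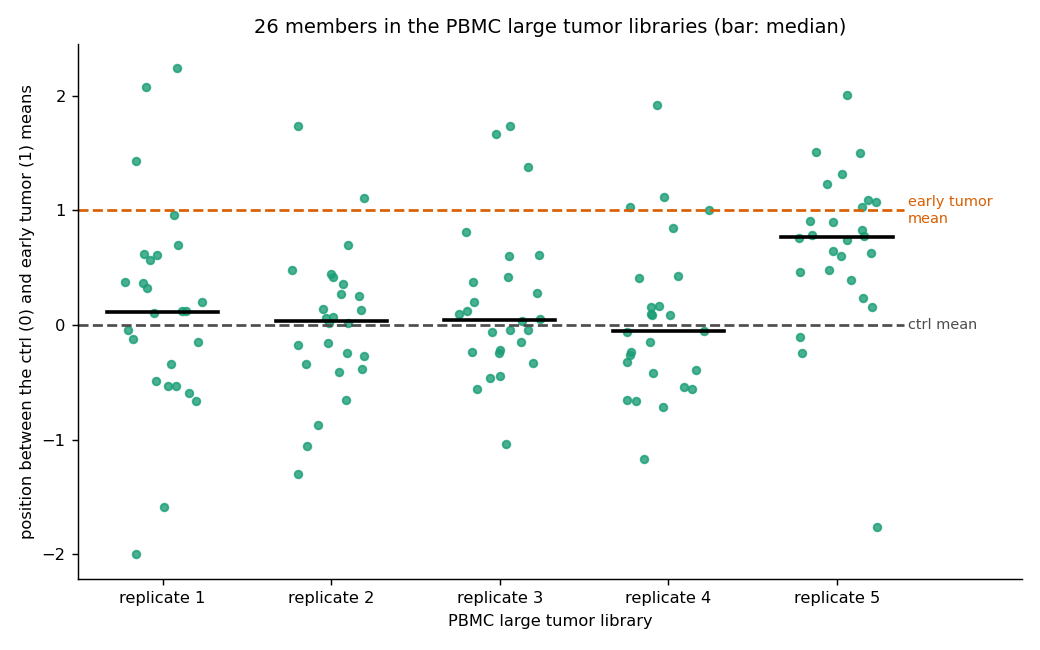
Position of each PBMC large tumor (O group) library, by library number, on a scale where 0 is the mean of ctrl and 1 the mean of early tumor (vertical axis), for the 26 members past the unadjusted threshold. Points are members and bars medians; library 5 has a median of 0.77 and the other libraries lie between -0.055 and 0.119.

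To see whether a member moved apart from its parent, the reads on the member per 1000 reads on the parent were compared between libraries, a measure that needs no normalization. In PBMCs, Gm3362 had 12.1 to 17.2 reads per 1000 on Rpl23a in C group, 19.6 to 42.7 in S group, 12.1 to 21.3 in libraries 1 to 4 of O group and 32.0 in library 5. The parent Rpl23a averaged 264 ± 35.1 CPM (SD, n = 5) in C group against 311 ± 34.8 CPM in S group. Gm10073 had 13.5 to 15.3 reads per 1000 on Rplp1 in C group, 5.75 to 9.60 in S group, 12.9 to 16.0 in libraries 1 to 4 of O group and 9.15 in library 5. Rpl37rt had 101 to 119 per 1000 on Rpl37 in C group, 75.6 to 82.3 in S group and 89.6 in library 5 of O group. These 3 members led the comparison that picked the set, so their ratios in S group and C group are a description. For them the ratios of those groups did not overlap. This did not hold for every member: Rpl38-ps2 had 131.5 to 194.5 reads per 1000 on Rpl38 in S group and 189.8 to 205.7 in C group, and the log2 ratio of Rpl21-ps8 to Rpl21 differed by 0.03 where its log2 level differed by -0.33.

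Over the members tested, the size of the log2 fold change between S group and C group in PBMCs had a median of 0.259 for the members and 0.0542 for the parents, and was larger in the member than in its parent for 65 of 76. These members were picked on that comparison, so this is a description. In S group against O group the medians were 0.232 and 0.154, with the member larger in 49 of 69, and in O group against C group 0.146 and 0.129, with the member larger in 46 of 72. In platelets the medians were 0.197 and 0.250 for S group against C group, with the member larger in 33 of 73 pairs. For S group against O group they were 0.289 and 0.270, although the member was the larger in only 21 of 70 pairs. For O group against C group they were 0.155 and 0.160, with the member larger in 32 of 73. In the PBMC comparisons, in the order above, other pseudogenes with -ps in the symbol had medians of 0.177, 0.280 and 0.212. Most copies drew fewer reads than their parents, and the part of that in these sizes was not tested.

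**Figure D4:**
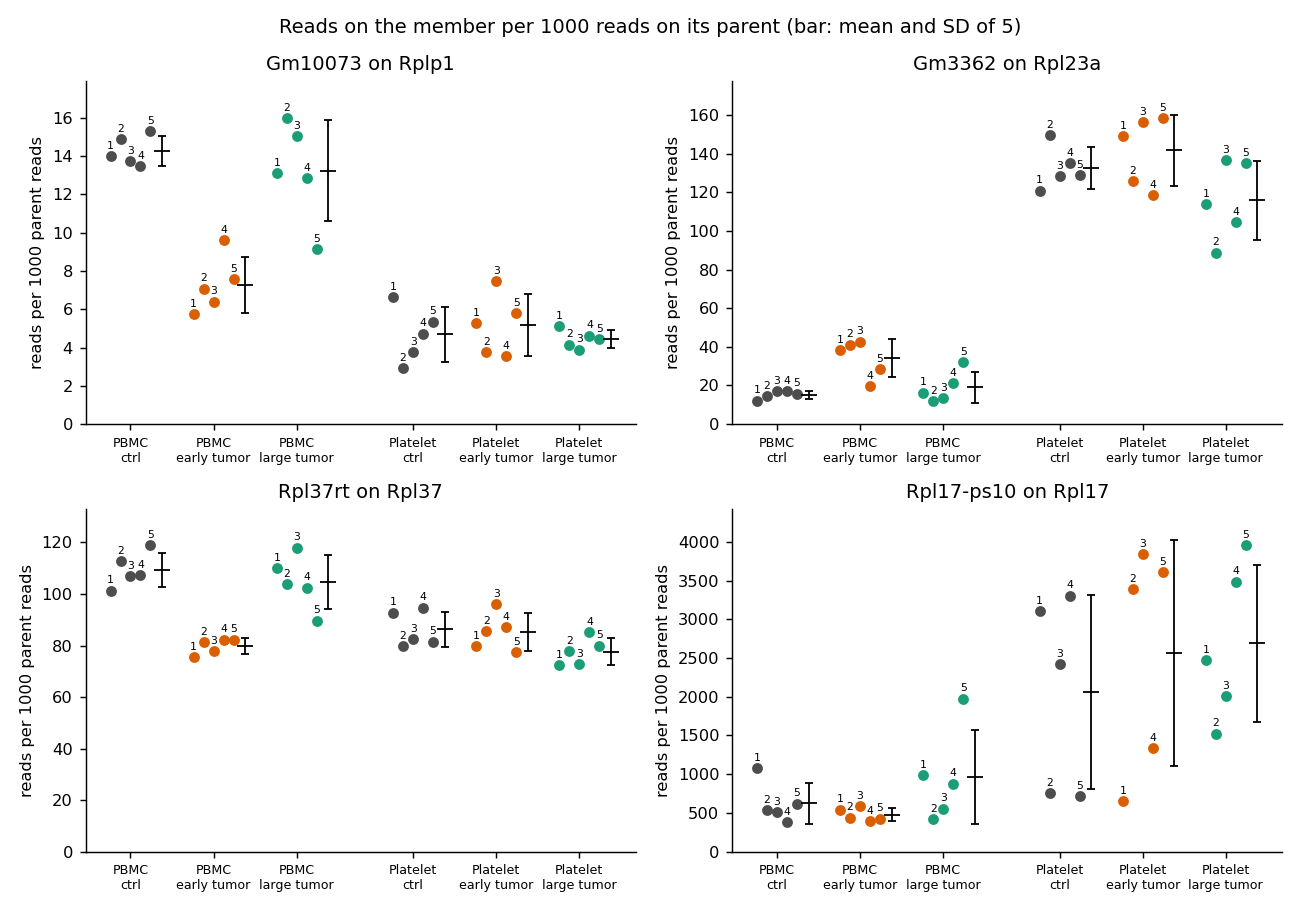
Reads on a member per 1000 reads on its parent (vertical axes) in each library by group and tissue; points are libraries with their numbers and bars the mean and SD (n = 5), with ctrl, early tumor and large tumor for C, S and O group. In PBMCs Gm3362 has 12.1 to 17.2 in C group and 19.6 to 42.7 in S group, and platelet libraries hold 88.8 to 158.6.

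Platelet libraries were not used to choose the members, but platelets and PBMCs were drawn from the same blood, so that pools of the tissues can share mice. In platelets, no member changed between groups after adjustment over all genes by edgeR. In S group against C group, 5 of 73 members tested had an unadjusted P under 0.05 by edgeR and 7 by DESeq2, and all of these were lower in S group, beside 6.42% of all genes by edgeR (4.29% higher and 2.13% lower) and 7.53% by DESeq2. The 5 are 6.85% of the members tested, near the share of all genes. The median log2 fold change was -0.15 over the members, -0.24 over 81 cytosolic ribosomal protein genes and -0.01 over all genes.

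The PBMC leaders did not pass the test in platelets. Rpl37rt stood at 20.9, 19.6, 29.1, 21.97 and 22.8 CPM in platelet libraries of C group and at 20.1, 21.04, 21.6, 18.1 and 11.9 in S group (log2 fold change -0.30, SE 0.176, adjusted P = 0.771 by edgeR). Gm10073 had 2.55 to 5.24 CPM in C group and 2.86 to 6.18 in S group (-0.05, SE 0.272, adjusted P = 0.979 by edgeR). Gm3362 stood at 14.7, 25.2, 47.7, 21.1 and 21.1 CPM in C group and at 25.2, 26.3, 25.1, 27.4 and 19.3 in S group (-0.07, SE 0.249, adjusted P = 0.969 by edgeR). Rpl17-ps3 had 126 to 296 CPM in C group and 97.1 to 153 in S group (-0.35, SE 0.236, adjusted P = 0.795 by edgeR). The groups overlapped for each of them. Whether the response differed between the tissues was not tested.

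Of the members past the unadjusted threshold in platelets, Rpl23a-ps3, a second copy of Rpl23a (chr14:34170655-34171122, plus strand) with 1 base that differs, had the smallest P. It stood at 31.0, 34.2, 53.7, 44.9 and 50.8 CPM in C group, at 27.3, 35.2, 26.6, 22.1 and 16.2 in S group, and at 57.3, 30.7, 25.8, 39.4 and 32.6 in O group (S group against C group, log2 fold change -0.75, SE 0.214, adjusted P = 0.746 by edgeR). Library 2 of S group lay above libraries 1 and 2 of C group. In PBMCs the same copy had 47.2 to 54.8 CPM in C group and 44.3 to 60.6 in S group.

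The other members were Rps19-ps6, Rpl34-ps1, Rps15a-ps6 and Rpl30-ps10, whose unadjusted P values lay between 0.0342 and 0.0426. Rpl30-ps10, a copy of the large-subunit gene Rpl30, stood at 18.7, 1.47, 3.43, 9.93 and 2.82 CPM in C group, at 2.70, 4.28, 1.35, 3.50 and 3.25 in S group, and at 9.32, 3.83, 9.02, 5.27 and 8.07 in O group. Ctrl libraries 2, 3 and 5 lay within the range of S group and libraries 1 and 4 above it (log2 fold change -1.26, SE 0.565, adjusted P = 0.769 by edgeR, and log2 fold change -0.53 without ctrl library 1). The count of 5 was 1 without ctrl library 4, 3 without ctrl library 3 or library 4 or 5 of S group, and 9 without ctrl library 2. Without library 5 of S group, 1 of the 3 was among the original 5, and 1 was higher in S group.

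Library 1 of O group stood apart among the platelet libraries, with an erythroid marker sum of 688400 CPM, against 46110 to 338100 in the others, and a neutrophil marker sum of 2758 CPM, against 132 to 653. The part of these values in the comparisons with O group was not tested, and counts without this library stand beside them. In S group against O group, 5 of 70 members tested had an unadjusted P under 0.05, all lower in S group, beside 13.9% of all genes (7.23% higher and 6.67% lower). Rpl30-ps10 had the smallest P (log2 fold change -1.22, SE 0.340, adjusted P = 0.246 by edgeR), and it was the one member that passed adjustment by DESeq2 (0.0346), beside 2.16% of all genes. The next were Rps27a-ps2, a copy of the ubiquitin fusion gene Rps27a (-0.83, SE 0.323, adjusted P = 0.311 by edgeR, and -0.50 without library 5 of O group), and Rps15a-ps6 (-0.67, SE 0.277, adjusted P = 0.326 by edgeR). Without library 1 of O group or library 3 of S group, 3 members were past the threshold, 2 of them among the original 5 in each case, and without library 1 of O group 1 of the 3 was higher in S group. Only Rpl30-ps10 and Rps15a-ps6 were lower in S group platelets than in both other groups at an unadjusted P under 0.05, and no member was higher than in both, of 70 tested in both. Of all genes tested in both, 0.81% were lower and 2.52% higher by this rule.

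In O group against C group in platelets, 1 of 73 members tested had an unadjusted P under 0.05, lower in O group, beside 4.79% of all genes (2.61% higher and 2.17% lower), and 2 had by DESeq2, beside 5.94% of all genes. This was Rps18-ps3, a copy of a small-subunit gene, at 2.11, 2.08, 6.91, 4.04 and 1.77 CPM in C group and 0.497, 2.09, 2.05, 1.81 and 1.99 in O group (log2 fold change -1.01, SE 0.439, adjusted P = 0.91 by edgeR, and log2 fold change -0.58 without ctrl library 3). The count was 0 without library 4 of O group or ctrl library 4, 2 without ctrl library 1, 2 or 3, and 3 without library 1 or 2 of O group. Rps18-ps3 was no longer past the threshold without ctrl library 3, where both members past it were higher in O group, or without library 1 or 5 of O group.

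The ratio of member to parent in platelets was tested with a two-sided exact permutation test that takes every way of dividing 10 libraries into 2 groups of 5, for 31 named members in the 3 comparisons. Of these 93 tests, 5 had an exact P under 0.05 and none passed Benjamini-Hochberg adjustment (smallest adjusted exact P = 0.531, and the smallest P the design allows is 0.00794). Some of these members, Rpl23a-ps3 among them, were named for a small P in the same platelet comparisons, so their ratios are no independent test. For Gm3362 and Gm10073, which were not, in S group against C group the log2 differences were 0.09 (exact P = 0.413) and 0.14 (exact P = 0.611).

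With all 30 libraries scaled together, most members differed between the tissues, and most of these were higher in platelets. In a fit to all 30 libraries that also held a term for group, 72 of 91 members tested differed between platelets and PBMCs at an adjusted P under 0.05 by edgeR, 62 higher and 10 lower in platelets, beside 81% of all genes (35.8% higher and 45.2% lower). The share of members was near that of all genes, but the split was not even: the median log2 fold change was 0.77 over the members, 0.67 over the 82 cytosolic ribosomal protein genes and -0.17 over all genes. Of those ribosomal protein genes, 75 were higher and 3 lower in platelets, and of 116 other pseudogenes with -ps in the symbol 57 were higher and 35 lower. These directions rest on TMM normalization over both tissues together. On the scale within each tissue, Rpl37rt averaged 32.4 CPM in PBMCs and 20.4 in platelets, and Gm3362 averaged 6.36 and 25.45. The direction of a member such as Rpl37rt thus depends on that scaling.

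Gm3362 was among the members highest in platelets relative to PBMCs. On the scale of all 30 libraries it had 2.04 to 8.65 CPM in PBMCs (mean 4.07) and 25.5 to 70.5 in platelets (mean 39.6), without overlap (log2 fold change 3.35, SE 0.198, adjusted P = 1.53e-15 by edgeR). Rps2-ps10 had 0.981 to 4.92 CPM in PBMCs and 14.0 to 74.8 in platelets (3.89, SE 0.240, adjusted P = 3.5e-15 by edgeR). Rpl21-ps10 had 0.101 to 1.56 and 2.18 to 6.90 CPM (3.10, SE 0.248, adjusted P = 1.11e-12 by edgeR). The parents of these copies differed less: Rpl23a had means of 175 and 309 CPM.

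Further members with a very small P were Rpl17-ps5 (log2 fold change 1.99, SE 0.0989, adjusted P = 5.98e-17 by edgeR), Rpl9-ps6 (2.04, SE 0.118, adjusted P = 1.01e-15 by edgeR) and Rpl31-ps8 (2.44, SE 0.144, adjusted P = 1.53e-15 by edgeR). Rpl17-ps5 and Rpl31-ps8 have no unique 100-base window, and Rpl31-ps8 does not differ from Rpl31 at all. Rpl31-ps8 had 11.4 to 17.2 CPM in PBMCs and 42.3 to 131 in platelets.

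On the scale of all 30 libraries, Gm10073 did not differ between tissues past the threshold (4.02 to 11.3 CPM in PBMCs and 4.05 to 13.6 in platelets, log2 fold change -0.20, SE 0.160, adjusted P = 0.25 by edgeR). Rpl37rt was higher in platelets on that scale, by 0.59 (SE 0.0787, adjusted P = 5.61e-08 by edgeR). Rps15a-ps7 was lower in platelets (log2 fold change -0.81, SE 0.142, adjusted P = 5.97e-06 by edgeR).

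By class in the PBMC comparison, the 10 members that were higher in S group had tissue log2 fold changes of 0.43 to 3.89 with a median of 1.09, and 9 of them were higher in platelets. The 16 that were lower had -1.19 to 2.67 with a median of 0.45, with 10 higher and 2 lower in platelets. The 51 others had a median of 0.66, with 33 higher and 7 lower. The tissue fit contains the PBMC libraries of S group and C group, so these medians are a description. The platelet marker sum in PBMC libraries, 1781 to 2547 CPM in S group, lay inside the range of C group, 721 to 4324. The part of platelets in the PBMC levels of these members was not tested.

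**Figure D5:**
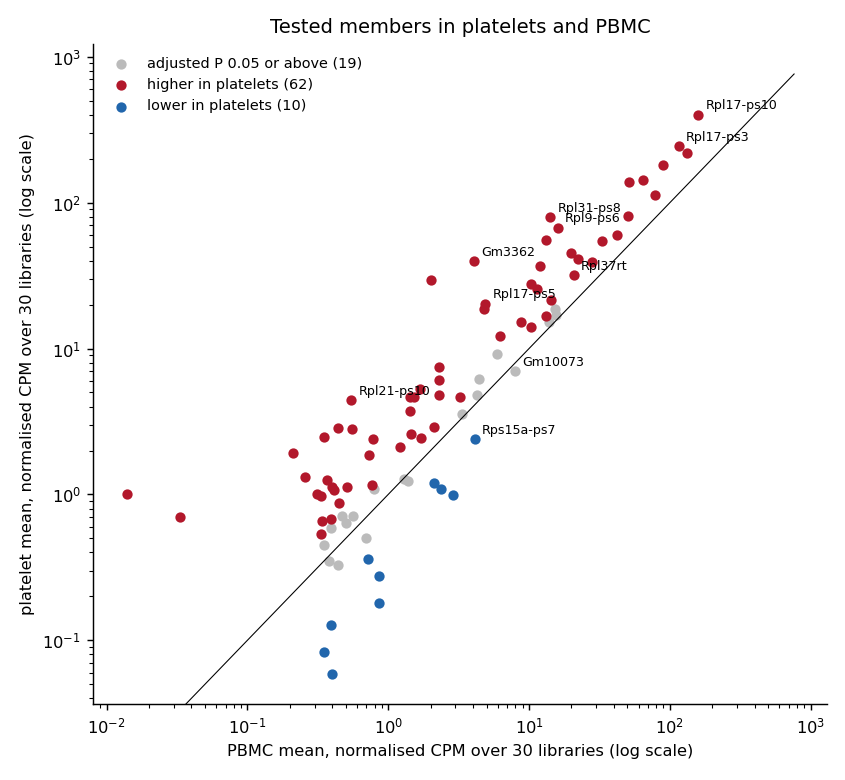
Mean level of each member tested in platelets (vertical axis) against PBMCs (horizontal axis), as CPM normalized over all 30 libraries, both on log axes, with the line of equal levels; each point is 1 member, red if higher and blue if lower in platelets and grey otherwise. Most members lie above the line, 62 of 91 being higher in platelets at an adjusted P under 0.05, and Gm3362 (4.07 and 39.6 CPM) lies far above it while Gm10073 (7.96 and 6.98) lies just below.

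The members together drew few reads beside the ribosomal protein genes. Summed, they made 1679 to 2124 CPM in PBMC libraries and 1021 to 2442 in platelet libraries, and 34.6 to 41.4 reads per 1000 reads on cytosolic ribosomal protein genes in PBMCs and 40.8 to 51.0 in platelets. In platelets the lowest sum was in library 5 of S group and the highest in ctrl library 3, which also had the lowest and highest sums of ribosomal protein genes, 21115 and 52341 CPM.

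Per kilobase of exon, 68 members with a parent reached 1 CPM in a tissue, and the median ratio of member to parent in CPM per kilobase was 0.0606 in PBMCs and 0.099 in platelets. In PBMCs, 6 of them were above the parent, and in platelets 7. Rps10-ps2 stood at 417 CPM per kilobase in PBMCs against 2.047 for the parent Rps10, and at 284 against 0.435 in platelets, and Rps10-ps1 was also above it, at 48.8 in PBMCs. Rps10 encodes a small-subunit protein, and in the annotation a readthrough gene shares its exons. How reads in both were counted is not given in the sources used here, and its part in the low parent count was not tested. Rpl21-ps15 stood at 207 CPM per kilobase in PBMCs against 36.3 for Rpl21. Rps12-ps3, identical to Rps12, stood at 284 against 157. In PBMCs the orders of these last copies rest on dividing by the length of all annotated exons. In CPM without that division, Rpl21-ps15 averaged 100.2 against 123 for Rpl21 in PBMCs and 91.9 against 63.5 in platelets, and Rps12-ps3 averaged 140.4 against 318 for Rps12 in PBMCs and 116.5 against 221 in platelets. Rps10-ps2 was above Rps10 in CPM as well, at 207 against 4.73 in PBMCs.

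Both Rpl17-ps10 and Rpl17-ps3 lay above Rpl17, at 447 and 325 CPM per kilobase against 305 in PBMCs, but below it in CPM, at 248 and 181 against 404. In platelets they were above it in CPM too, at 257 and 157 against 135. Reads on Rpl17-ps10 relative to Rpl17 differed from library to library, and the cause was not tested. Rpl17-ps10 had 380 to 1977 reads per 1000 on Rpl17 in PBMCs, the highest in library 5 of O group, and 657 to 3952 in platelets. In that library Rpl17 was at its lowest PBMC level, 198 CPM, and Rpl17-ps10 at its highest, 392 CPM. Across PBMC libraries the coefficient of variation was 21.8% for Rpl17, 14.4% for its 10 copies summed and 7.2% for parent and copies together. In platelets the values were 51.2%, 23.1% and 19.2%. Over 40 families with a tested member, the median coefficient of variation of parent and copies together was 8.8% in PBMCs against 9.0% for the parent alone, and the sum varied less than the parent in 20 of 40 families. In platelets these medians were 23.1% and 24.3%, and the sum varied less in 28 of 40. The Rpl17 and Rps10 families were singled out after their values were seen.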

How the data were processed

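The authors trimmed reads, aligned them with HISAT2 2.0.5 and counted them per gene with featureCounts 1.5.0-p3, as their processing notes list, to make the deposited raw counts. Those notes name mm9, while positions here are those of GRCm38. Samples were grouped by title and source name, since the platelet samples' cell type tag reads PBMC. Read length and strand are not given in the sources used here. Of 54532 Ensembl IDs, 54495 matched GENCODE mouse release 21. Parents were found with blastn 2.17.0.

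Members and lists were chosen with earlier results of these data known. Each pair of groups was tested with edgeR 4.0.16 (quasi-likelihood, filterByExpr, TMM, two-sided, R 4.3.3), with Benjamini-Hochberg adjustment over all genes. The study's unadjusted threshold of 0.05 was used. An SE is the log2 fold change over the square root of F. The method was tested on simulated data. Replicates are pools of mice, so P values measure the spread between pools. No 2 libraries of the same group and tissue agreed within sampling noise, and others were not compared. Ratios used counts plus 0.5.

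Named members were Rpl37rt, Gm10073, Gm3362, the 3 with the smallest P per comparison, the 5 with the highest level per tissue, those of S group past the threshold in both comparisons, and the parents. Further members were named after their values were seen. Some members are not reported here. Alternatives were RLE size factors, no filter, DESeq2 1.42.0, all groups in one fit, a replicate block and leaving out each library. Same-numbered libraries deviated together in PBMCs of S group and C group (correlations 0.266 to 0.562) and of S group and O group (0.11 to 0.392). These numbers were taken to pair the libraries. In the other comparisons at least 1 pair did not deviate together (lowest correlations -0.231 to 0.063, highest 0.162 to 0.621), so the numbers were not taken to pair libraries there. The pairing comes from the data, since the labels do not say what a number marks. The PBMC fits above were made without it, and counts with it are given below as the replicate block.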

Additional observations from a re-analysis of the deposited data

Results flagged for a closer look

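For 16 members, the 5 libraries of each group and tissue were checked for 1 library that stood apart by Dixon's criterion, 96 groups in all, of which chance gives about 1 in 20. It was met in 10 groups. In PBMCs, ctrl library 2 was highest for Rpl37rt (44.11 CPM, others 36.46 to 38.51) and for Gm10073 (18.04, others 14.04 to 15.17). Library 5 of O group was highest for Gm3362 (7.955, others 3.15 to 4.407) and for Rpl9-ps4 (19.16, others 11.96 to 13.82), and library 2 of O group was highest for Rps27a-ps2 (11.36, others 4.281 to 5.282). Library 4 of S group was highest for Rps25-ps1 (4.99, others 0.5813 to 1.654). In platelets, library 5 of S group was lowest for Gm3362 (19.27, others 25.15 to 27.4), and ctrl library 3 was highest for Rpl17-ps3 (295.9, others 126.1 to 169.6). Library 1 of O group was highest for Rps2-ps10 (52.05, others 15.1 to 21.97), where the parent Rps2 stood at 1921 CPM and the erythroid marker sum at 688400 CPM (46110 to 338100 in the other platelet libraries), and lowest for Rps18-ps3 (0.4969, others 1.809 to 2.085).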

How the results depend on the processing

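For single named members, 425 of 462 alternative values kept their direction and their side of the threshold, 29 kept the direction but were no longer past it, 6 came past it and 2 reversed. The reversals were in O group against C group in PBMCs without library 5 of O group, where Gm10073 had 0.0384 and Gm3362 -0.0599 (-0.09 and 0.24 with it). With each library left out in turn, these log2 fold changes ran from -0.1695 to 0.0384 and from -0.0599 to 0.3559. Counts of members past the threshold when 1 library was left out ranged from 22 to 28 (S group against C group, PBMCs), 16 to 22 (S group against O group), 4 to 12 (O group against C group), 1 to 9, 3 to 6 and 0 to 3 (the same comparisons in platelets), 73 to 83 (tissues) and 3 to 7 (ratio tests). In platelets, the replicate block gave 3 members in S group against C group and 3 against O group, where the numbers were not taken to pair libraries. Without a filter, the counts were 10 for S group against O group, 6 for O group against C group and 109 for tissues, where more genes were tested. DESeq2 gave 2 for O group against C group. With the sum of ribosomal protein genes as the denominator, 8 ratio tests were past the threshold. In these cases without a stated cause, the cause was not tested. With the block, the paired PBMC comparisons of S group had 30 members past the unadjusted threshold against C group and 19 against O group. Rps10-ps2 and Rpl30-ps10 came past it, and no other named member changed its side of that unadjusted threshold. With group and number together as a block, 71 of 91 members differed between tissues. Low counts limit Rps18-ps3, Rps25-ps1 and Rpl21-ps10, and the uncertain placement of reads limits every copy with few unique windows.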
